A study of Mus musculus with 2 samples.

Results

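The insulin-like growth factor (IGF) genes described here are 10 of the 32285 genes counted in mouse choroid with attached retinal pigment epithelium (RPE), taken by symbol: the ligands Igf1 and Igf2, the receptors Igf1r and Igf2r, and the binding protein genes Igfbp2, Igfbp3, Igfbp4, Igfbp5, Igfbp6 and Igfbp7. The choroid is a sheet of vessels, pigment cells and connective tissue that feeds the outer retina, and the RPE is the epithelial sheet lying between it and the rods and cones. The samples were 2 single-cell libraries from wild-type ICR mice aged 8 weeks. Each was made from the choroids of 1 male and 1 female together, and neither sex nor animal was followed within a library. ICR is an outbred albino strain, and no group was treated or mutated. The comparisons are therefore between cell classes of the same libraries, with 2 libraries as the replicates.

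IGF ligands are secreted peptides related to insulin. Both act through Igf1r, a receptor tyrosine kinase that signals through the insulin receptor substrates and the PI3 kinase-Akt pathway, whereas Igf2r, also the cation-independent mannose 6-phosphate receptor, takes IGF2 up for breakdown in lysosomes. Most IGF in tissue is held by binding proteins, which carry the ligands, keep them from or release them to the receptor, and are cut by proteases such as PAPP-A. Igfbp7 binds IGFs weakly and is mainly known as a secreted protein of vessels and matrix.

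A barcode counted as a cell when it had 1000 or more UMIs (unique molecular identifiers, each standing for 1 captured RNA molecule), 500 or more genes and no more than 20% of its UMIs from mitochondrial genes, which left 8497 cells in library 1 and 13401 in library 2, with medians of 7842 and 8253 UMIs per cell, where the labels give 10000 cells loaded for each. Each cell went to the class with the most UMIs, 5 or more, of 3 marker genes, so that a class name stands for its markers: Dcn, Col1a2 and Col3a1 for fibroblasts, Dct, Pmel and Mlana for melanocytes, Rpe65, Rgr and Rlbp1 for RPE, Cdh5, Pecam1 and Egfl7 for endothelial cells, Rgs5, Kcnj8 and Higd1b for pericytes, Myh11, Cnn1 and Acta2 for smooth muscle, and C1qa, Csf1r and Cd68 for macrophages. In this way 7874 and 12615 cells had a class. There were 3998 and 6232 fibroblasts, 1407 and 2251 melanocytes, 304 and 903 RPE cells, 464 and 609 endothelial cells, 1038 and 1425 pericytes, 234 and 330 smooth muscle cells, and 429 and 865 macrophages. Of 8 other markers per class, 8 were highest in their own class for fibroblasts, endothelial cells, smooth muscle and macrophages, and 7 for RPE, melanocytes and pericytes. The libraries shared 31 cell barcodes. Fibroblast markers were measured outside fibroblasts: the median of the 8 other fibroblast markers stood at 12.3% and 13.4% of the fibroblast level in pericytes and at 9.20% and 12.2% in smooth muscle, against 0.797% and 1.60% in endothelial cells. The mural classes shared more: the median of the 8 other pericyte markers stood at 55.3% and 56.5% of the pericyte level in smooth muscle and at 22.2% and 24.9% in fibroblasts, and that of the smooth muscle markers at 32.9% and 32.4% of the smooth muscle level in pericytes. For some genes and classes, levels outside fibroblasts are therefore set beside the level in cells of the class that held no UMI of the 3 fibroblast markers. This check was chosen after the data were seen.

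Levels are given as CPM, the summed UMIs of a class in 1 library per 1000000 UMIs after TMM scaling, in the order library 1, library 2. Each class was set against the mean of the other 6 in a fit over 15146 genes, and a gene was called at an adjusted p (edgeR's quasi-likelihood test, Benjamini-Hochberg) below 0.05 with a log2 fold change of at least 1. Fibroblasts had 9 of the 10 IGF genes higher and 0 lower, where 17.1% of all genes tested were called higher and 6.31% lower, and the median log2 fold change of the IGF genes was 2.20 against 0.02 over all genes. Igf1r was the gene not called there (0.40 ± 0.11, adjusted p = 0.0063). Pericytes had 4 higher (Igf1, Igf2r, Igfbp5, Igfbp7) and 2 lower, against 12.9% and 9.26% of all genes. Smooth muscle had 2 higher (Igfbp2, Igfbp7) and 1 lower, against 12.4% and 7.29%, and endothelial cells had 2 higher (Igfbp3, Igfbp7) and 5 lower, against 15% and 19.5%. RPE had 2 higher (Igf2, Igfbp2) and 6 lower, against 26.3% and 23.5%, and macrophages had 1 higher (Igf1) and 8 lower, against 19.8% and 21.1%. Melanocytes had 0 higher and 4 lower by edgeR, against 14.7% and 11.3%, and 7 of the 10 had an unadjusted p below 0.05 in either direction. DESeq2 called 5 in melanocytes. The library was a block in the fit, which takes out a shift that all classes share between the 2 pools of mice. The p-values therefore measure how far class differences varied between these 2 pools, with a spread estimated over all classes.

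With free RNA subtracted, 15 of the 61 calls in classes, subgroups and beds missed the threshold, among them Igfbp7 as higher in fibroblasts (1.78, adjusted p = 0.139), endothelial cells (1.93, adjusted p = 0.103) and smooth muscle (2.15, adjusted p = 0.103). The free RNA estimate exceeded the measured level in places, such as Igfbp7 in macrophages of library 1 (341 against 121 CPM). It was too high there, and the subtraction left no count, so calls lost in this setting depend on that estimate. When fibroblasts were limited to cells without endothelial marker UMIs and all other classes to cells without fibroblast marker UMIs, 12 missed it or turned, among them Igf2r as higher in pericytes (0.91, adjusted p = 0.000513) and Igfbp5 as lower in RPE (-1.10, adjusted p = 0.106). Between classes that neighbour each other in the order of a gene's levels, an order read from the same data, 22 of 60 steps passed the adjusted p and 19 were called. Over all 21 pairs of classes the IGF genes were called in 146 of 210 cases, 6 of 21 for Igf1r and 13 to 19 of 21 for the other genes, where 38.8% of all genes were called.

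**Figure D1:**
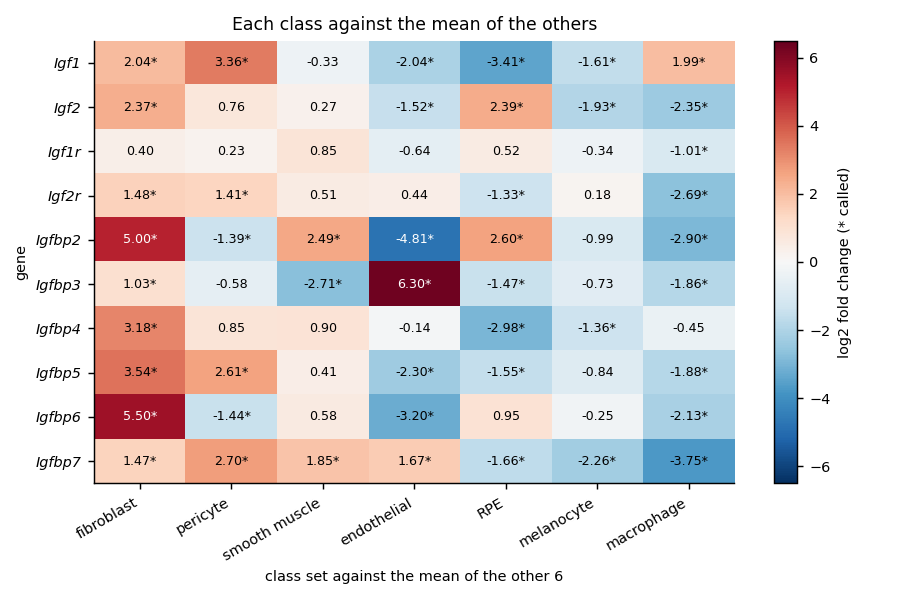
Log2 fold change of each IGF gene (rows) in each cell class against the mean of the other 6 (columns); colour and printed number give the same value, and an asterisk marks a call. The fibroblast column holds 9 called higher genes, and the single largest value is Igfbp3 in endothelial cells at 6.30.

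Of the ligands, Igf1 was highest in pericytes, the contractile cells wrapped around capillaries. Its level was 189 and 194 CPM in pericytes, 91.8 and 81.5 CPM in fibroblasts and 97 and 73.9 CPM in macrophages. The other classes were lower, with 17.8 and 24.4 CPM in smooth muscle, 6.59 and 13.3 CPM in melanocytes, 7.48 and 8.0 CPM in endothelial cells and 2.37 and 4.17 CPM in RPE. Both pericyte libraries lay above every other class sum, fibroblasts and macrophages overlapped, and both RPE values were the lowest, although the step from endothelial cells to RPE missed the threshold with the top class at least 3 times the next (RPE over endothelial cells -0.77, adjusted p = 0.0813) and without fibroblast marker UMIs (-2.31, adjusted p = 0.1), and moved to -0.77 without library 1. The pericyte level exceeded the fibroblast level (log2 fold change 1.14 ± 0.25, adjusted p = 0.00491), while fibroblasts and macrophages did not differ beyond the test (0.03 ± 0.26, adjusted p = 0.918). Macrophages in turn exceeded smooth muscle (1.99 ± 0.32, adjusted p = 0.000267).

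At least 1 Igf1 UMI was found in 49.6% (46.5 to 52.7) and 55.9% (53.2 to 58.5) of pericytes (95% exact binomial interval in parentheses, here and below; these intervals cover counting error only), and in 2.63% (1.14 to 5.12) and 4.1% (2.9 to 5.6) of RPE cells. The other shares were 36.9% and 41.4% of fibroblasts, 9.83% and 14.2% of smooth muscle cells, 4.31% and 7.06% of endothelial cells, 4.05% and 9.55% of melanocytes and 32.6% and 26.7% of macrophages. RPE cells were the deepest, with medians of 26254 and 19072 UMIs, and pericytes the shallowest, with medians of 5582 and 5779. For this reason some shares, here and below, are also given at equal depth. Of 140 shares 135 moved when thinned, so shares without an equal-depth value should not be compared between classes of unlike depth. Thinned to 2000 UMIs per cell, the shares were 27.5% and 32.6% in pericytes, 14.2% and 16.2% in fibroblasts, 12% and 10.4% in macrophages and 0.346% and 0.637% in RPE. Smooth muscle cells without a fibroblast marker UMI had 4.06 and 0 raw CPM of Igf1, against 18.3 and 28.8 in all smooth muscle cells. Such melanocytes had 1.32 and 4.33, against 6.66 and 16.1 in all. Such endothelial cells had 4.02 and 2.89, against 7.67 and 9.14, and such RPE cells 0 and 1.01, against 2.05 and 3.85. In cells without a fibroblast marker UMI, Igf1 had 139 and 118 raw CPM in pericytes (196 and 188 cells) and 62.6 and 40.8 in macrophages, against 186 and 227 in all pericytes and 68.6 and 61.1 in all macrophages. The pericyte excess over fibroblasts was smaller when such pericytes were set against fibroblasts without endothelial marker UMIs and missed the threshold (log2 fold change of fibroblasts over pericytes -0.41, adjusted p = 0.5). Fibroblasts, the most frequent cells, supplied 64.6% and 62.2% of all Igf1 UMIs, and pericytes 23.4% and 23.7%.

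Igf2 was highest in RPE and fibroblasts. Its level was 41.2 and 78.3 CPM in RPE and 38 and 82.6 CPM in fibroblasts, then 15.9 and 29.6 CPM in pericytes, 12.9 and 21.5 CPM in smooth muscle, 3.74 and 8.11 CPM in endothelial cells, 2.97 and 6.31 CPM in melanocytes and 1.49 and 5.36 CPM in macrophages. Library 2 was above library 1 in each class, and only the steps from fibroblasts to pericytes and from smooth muscle to endothelial cells separated classes whose libraries did not overlap. RPE and fibroblasts did not differ beyond the test (log2 fold change 0.02 ± 0.14, adjusted p = 0.928), and fibroblasts exceeded pericytes (1.38 ± 0.15, adjusted p = 5.92e-06; without the library as a block 1.39, adjusted p = 0.0935). A UMI was seen in 39.1% (33.6 to 44.9) and 44.1% (40.8 to 47.4) of RPE cells, 20.1% (18.9 to 21.4) and 38.3% (37.1 to 39.5) of fibroblasts and 0.699% (0.144 to 2.03) and 2.77% (1.79 to 4.1) of macrophages, and at 2000 UMIs per cell in 6.12% and 11.2% of RPE cells, 7.0% and 16% of fibroblasts and 0.116% and 0.661% of macrophages. RPE cells with no fibroblast marker UMI kept 37.1 and 63.6 raw CPM, against 35.7 and 72.3 in all RPE cells. Such pericytes had 6.43 and 14.2, against 15.7 and 34.6 in all pericytes, and such smooth muscle cells 5.42 and 19.6, against 13.2 and 25.5. Such endothelial cells had 2.01 and 7.23, against 3.84 and 9.27 in all. Such melanocytes had 0.351 and 0.915, against 3.01 and 7.66, and such macrophages 0.409 and 0.851, against 1.05 and 4.43. Positive cells in the other classes made up 7.61% and 15.4% of pericytes, 8.12% and 14.8% of smooth muscle cells, 3.02% and 5.09% of endothelial cells and 2.13% and 4.71% of melanocytes.

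**Figure D2:**
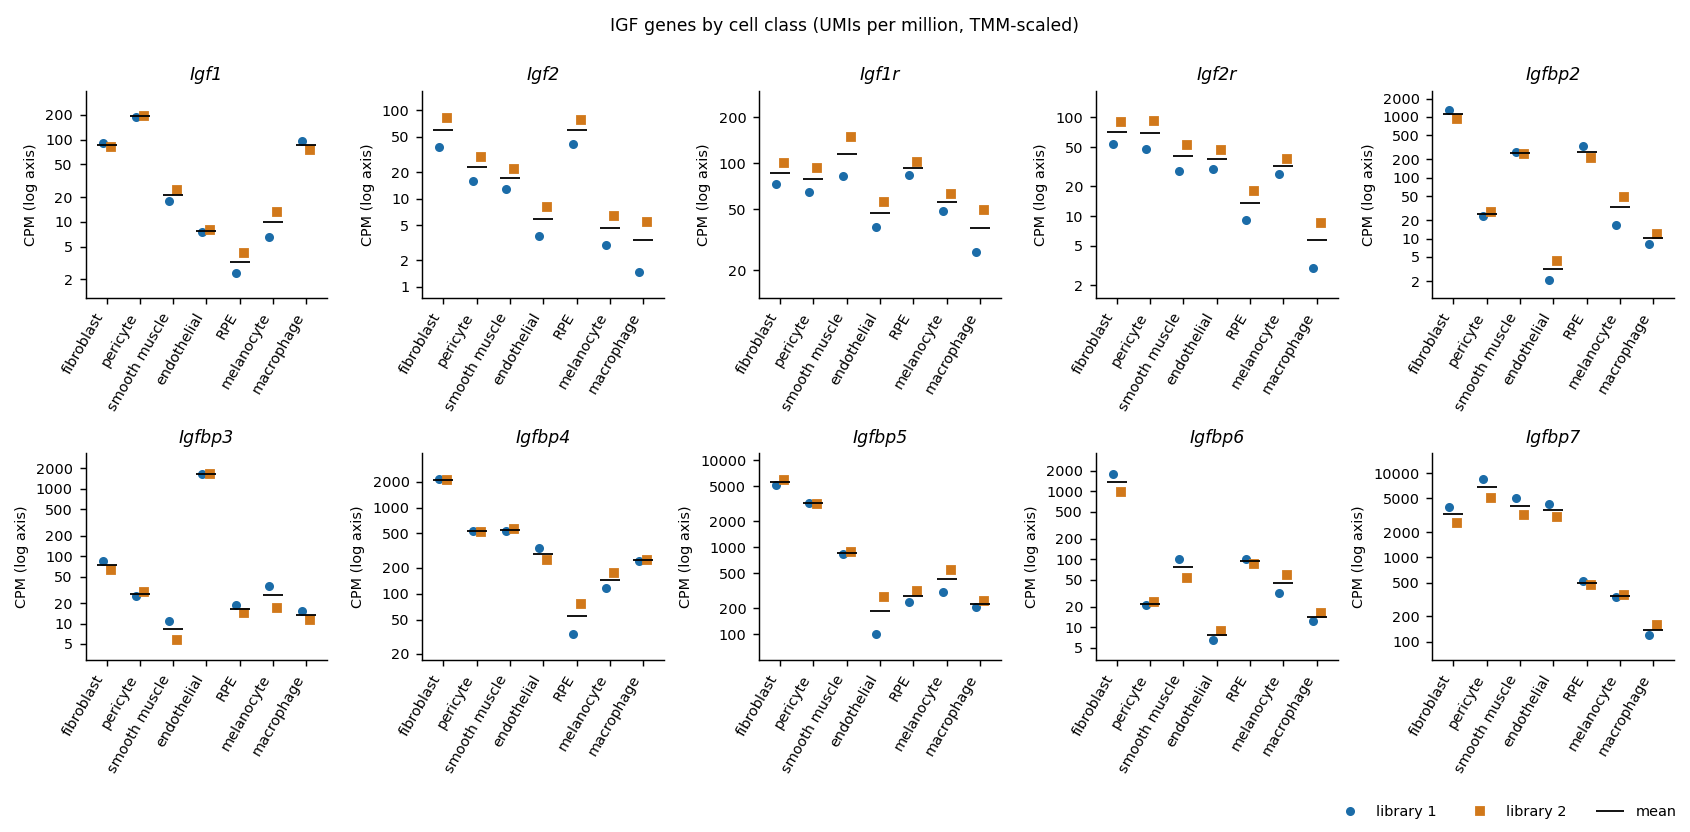
CPM on a log axis for each IGF gene (panels) in the 7 cell classes; circles are library 1, squares library 2, and the line is their mean. Igfbp3 stands at 1669.9 and 1645 CPM in endothelial cells, apart from the other classes, whereas the Igf1r values of all classes lie between 26.4 and 148 CPM.

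Of the receptors, Igf1r had the narrowest range of levels of the 10 genes. It was present in all 7 classes, at 82.7 and 148 CPM in smooth muscle, 84.1 and 101 CPM in RPE, 73.3 and 101 CPM in fibroblasts and 65.2 and 92.8 CPM in pericytes. Melanocytes had 48.7 and 62.9 CPM, endothelial cells 38.2 and 56 CPM and macrophages 26.4 and 49.2 CPM. Of its 6 pairs of neighbouring classes 0 were called and 1 passed the adjusted p alone (pericytes over melanocytes, log2 fold change 0.49 ± 0.15, adjusted p = 0.0112). The macrophage level was just past the limit of the call (-1.01 ± 0.13, adjusted p = 9.84e-06) and fell short of it with DESeq2 (log2 fold change -0.99, adjusted p = 9.41e-11 by DESeq2). A UMI was seen in 40.8% and 55.8% of fibroblasts, 28.1% and 44.4% of pericytes, 43.2% and 64.2% of smooth muscle cells, 31.2% and 41.5% of endothelial cells, 64.1% and 61.8% of RPE cells, 39.2% and 46.9% of melanocytes and 14% and 24.9% of macrophages. In cells of equal depth, 14% and 26.9% of smooth muscle cells and 3.45% and 7.33% of macrophages showed a UMI.

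Igf2r, the receptor that clears IGF2, was highest in fibroblasts and pericytes. It reached 53.3 and 89.4 CPM in fibroblasts and 47.4 and 91.9 CPM in pericytes, which did not differ beyond the test (0.06 ± 0.15, adjusted p = 0.855). Smooth muscle had 28.7 and 52 CPM, endothelial cells 30.2 and 46.3 CPM and melanocytes 26.6 and 38 CPM. The level fell to 9.24 and 17.9 CPM in RPE, below melanocytes (log2 fold change of melanocytes over RPE 1.29 ± 0.16, adjusted p = 9e-06), and macrophages were lowest at 2.97 and 8.51 CPM, below RPE (1.17 ± 0.22, adjusted p = 0.00024). Without the library as a block both steps missed the threshold (RPE over melanocytes -1.23, adjusted p = 0.0507; RPE over macrophages 1.13, adjusted p = 0.0909). In macrophages of library 1 the free RNA estimate, 6.03 CPM, exceeded the measured level and so was too high. A UMI was seen in 30.1% and 49.1% of fibroblasts, 21.3% and 40.5% of pericytes, 17.1% and 37% of smooth muscle cells, 28.9% and 38.8% of endothelial cells, 20.1% and 26.9% of RPE cells, 24.4% and 35.9% of melanocytes and 1.63% and 4.16% of macrophages. An antisense gene, Airn, overlaps Igf2r on the other strand and had 1303 and 2193 UMIs of its own. The strand setting of the counting is not given in the sources, and without it reads of the overlapping pair cannot be told apart.

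The binding proteins carried the largest class differences. Igfbp2 and Igfbp5 are neighbours on chromosome 1 (mm10): Igfbp2 runs on the + strand from 72824503 to 72852474 and Igfbp5 on the - strand from 72857932 to 72874884, with 5457 bases between their facing ends. Igfbp3 lies on chromosome 11 from 7206086 to 7213923, - strand, and Igfbp6 on chromosome 15 from 102144362 to 102149511, + strand. Their promoter windows, 250 bases before to 50 after a RefSeq start (GRCm38.p6), are shown because these genes had the 3 largest log2 fold changes of a class (Igfbp3, Igfbp6, Igfbp2) or are the neighbour of such a gene (Igfbp5). Capitals mark GGGCGG, a core of the GC box, or TATAAA, the TATA box core, searched on both strands (TATAAA reads TTTATA where it lies on the other strand); these motifs do not overlap each other. GGGCGG was found in 35.7% and TATAAA in 13.6% of all RefSeq promoter windows of this length.
Igfbp2 (chr1:72824230-72824529, + strand): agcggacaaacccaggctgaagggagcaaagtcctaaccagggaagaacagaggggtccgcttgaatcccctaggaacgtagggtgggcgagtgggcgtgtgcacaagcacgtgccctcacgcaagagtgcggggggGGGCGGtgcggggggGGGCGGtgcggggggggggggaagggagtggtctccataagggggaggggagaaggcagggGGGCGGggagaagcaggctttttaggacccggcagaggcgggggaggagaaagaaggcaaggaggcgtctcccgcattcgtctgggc
Igfbp5 (chr1:72874816-72875115, - strand): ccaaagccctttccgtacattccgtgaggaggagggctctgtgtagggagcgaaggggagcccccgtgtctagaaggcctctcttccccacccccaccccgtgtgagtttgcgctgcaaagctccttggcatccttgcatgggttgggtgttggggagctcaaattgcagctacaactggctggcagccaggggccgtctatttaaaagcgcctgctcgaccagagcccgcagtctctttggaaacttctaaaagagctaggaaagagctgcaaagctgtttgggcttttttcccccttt
Igfbp3 (chr11:7213874-7214173, - strand): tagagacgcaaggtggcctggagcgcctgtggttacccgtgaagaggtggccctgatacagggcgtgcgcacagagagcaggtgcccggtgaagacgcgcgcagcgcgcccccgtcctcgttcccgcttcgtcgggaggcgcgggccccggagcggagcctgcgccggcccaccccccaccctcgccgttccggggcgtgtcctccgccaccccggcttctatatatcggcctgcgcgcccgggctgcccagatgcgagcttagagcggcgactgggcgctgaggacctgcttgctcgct
Igfbp6 (chr15:102143936-102144235, + strand): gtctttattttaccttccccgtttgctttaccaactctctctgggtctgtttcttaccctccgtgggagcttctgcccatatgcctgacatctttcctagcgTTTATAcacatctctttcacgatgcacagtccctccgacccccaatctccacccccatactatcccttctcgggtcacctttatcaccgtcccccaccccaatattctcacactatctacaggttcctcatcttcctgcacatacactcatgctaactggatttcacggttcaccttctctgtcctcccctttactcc
The Igfbp2 window shown held GGGCGG 3 times, while another Igfbp2 window (chr1:72825137-72825436) held it 0 times. The Igfbp6 window held TATAAA 1 time, on the other strand and at -148 from the start. In Igfbp4 it lay at -28. The Igfbp3 and Igfbp5 windows held neither motif as spelled. Over all 10 IGF genes, 14 windows matched, and 5 genes had GGGCGG and 2 had TATAAA in at least 1 window.

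Igfbp2, which binds IGF2 with high affinity, was highest in fibroblasts at 1322 and 917 CPM. RPE had 332 and 207 CPM and smooth muscle 261 and 250.2 CPM. Melanocytes had 16.5 and 48.8 CPM, pericytes 23.1 and 27.9 CPM, macrophages 8.17 and 12 CPM and endothelial cells 2.11 and 4.33 CPM. Free RNA alone was estimated to give 68.1 and 18.8 CPM in macrophages and 6.7 and 7.21 CPM in endothelial cells. These estimates lie above what was measured and so are too high. Fibroblasts exceeded RPE (log2 fold change 2.05 ± 0.51, adjusted p = 0.00834; RPE over fibroblasts with free RNA subtracted -2.10, adjusted p = 0.183), and RPE exceeded the mean of the other classes (2.60 ± 0.34, adjusted p = 0.000276). The 2 classes reached their level in different ways: a UMI was seen in 86.2% (81.8 to 89.9) and 75.3% (72.4 to 78.1) of RPE cells, but in 32.9% (31.5 to 34.4) and 33.1% (32 to 34.3) of fibroblasts, where the 10% of cells with the most held 88.7% and 84.6% of the UMIs, against 39.3% and 45.7% in RPE. Thinned to equal depth, 38.1% and 28.8% of RPE cells and 22% and 22.2% of fibroblasts were positive, against 0.453% and 0.786% of endothelial cells. Unthinned, a UMI was also found in 5.78% and 6.32% of pericytes, 2.59% and 4.27% of endothelial cells, 4.48% and 8.71% of melanocytes and 3.96% and 6.59% of macrophages.

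In smooth muscle the Igfbp2 level differed with the fibroblast marker UMIs in the cells. It was positive in 20.5% (15.5 to 26.3) and 22.4% (18 to 27.3) of smooth muscle cells, with 93.3% and 94.4% of its UMIs in the 10% of cells with the most. In the 110 and 94 smooth muscle cells without a fibroblast marker UMI it stood at 27.1 and 8.42 raw CPM, against 267 and 296 in all smooth muscle cells. The call of smooth muscle as higher (2.49 ± 0.35, adjusted p = 0.00128) turned, in the fit of such cells and of fibroblasts without endothelial marker UMIs, to -0.60, adjusted p = 0.547. RPE cells selected in the same way (205 and 426 cells) kept 294 and 189.8 raw CPM, against 287 and 191 in all RPE cells.

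Igfbp6, the binding protein with a preference for IGF2, was the most fibroblast-weighted of the 10 by share of UMIs. It measured 1809.7 and 972 CPM in fibroblasts, against 99.3 and 86.3 CPM in RPE, 99.6 and 52.3 CPM in smooth muscle, 31.3 and 58.2 CPM in melanocytes and 21.2 and 23.3 CPM in pericytes. Macrophages had 12.3 and 16.4 CPM and endothelial cells 6.5 and 8.89 CPM. Fibroblasts exceeded RPE, the next class (log2 fold change 3.90 ± 0.47, adjusted p = 0.000131), and supplied 97.2% and 94% of its UMIs while holding 43.9% and 43.3% of all UMIs. A UMI was found in 61.5% (60.002 to 63) and 57.9% (56.7 to 59.1) of fibroblasts and 7.33% (5.13 to 10.1) and 9.52% (7.31 to 12.1) of endothelial cells, and in 5.68% and 6.39% of pericytes, 9.83% and 16.7% of smooth muscle cells, 51.3% and 48.5% of RPE cells, 8.03% and 13.1% of melanocytes and 6.99% and 10.9% of macrophages. The free RNA share estimated from rod genes, photoreceptor transcripts that these cells should lack, would by itself give 11.2 and 9.39 CPM in endothelial cells and 24.5 and 41 CPM in pericytes, above the levels measured there. In macrophages of library 1 the same estimate was 114 CPM, against 12.3 CPM measured. An estimate above the measured level is too high, and the part of free RNA in these low levels was not tested. RPE kept 71.7 and 71.8 raw CPM without fibroblast marker UMIs, against 86 and 79.6 in all RPE cells. Such smooth muscle cells had 0 and 16.8, against 102 and 61.8 in all smooth muscle cells. Such pericytes had 3.22 and 8.11, against 20.9 and 27.2 in all, and such melanocytes 5.8 and 15.6, against 31.7 and 70.6. Such endothelial cells had 6.28 and 7.81, against 6.67 and 10.2, and such macrophages 6.14 and 11.9, against 8.67 and 13.5.

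Igfbp3, the main carrier of IGFs in plasma, was highest in endothelial cells. Its level was 1669.9 and 1645 CPM in endothelial cells, against 85.5 and 62.2 CPM in fibroblasts, 25.7 and 29.2 CPM in pericytes, 36.4 and 17.2 CPM in melanocytes, 19 and 14.4 CPM in RPE, 15.2 and 11.3 CPM in macrophages and 10.9 and 5.74 CPM in smooth muscle. Both endothelial sums lay far above every other class sum. Endothelial cells exceeded fibroblasts by a log2 fold change of 4.52 ± 0.26, adjusted p = 3.92e-08, and fibroblasts exceeded pericytes by 1.38 ± 0.24, adjusted p = 0.000876 (with Scrublet doublets left out 1.90, adjusted p = 0.109). A UMI was found in 76.9% (72.8 to 80.7) and 79.6% (76.2 to 82.8) of endothelial cells and 2.14% (0.697 to 4.92) and 3.94% (2.11 to 6.64) of smooth muscle cells. It was also found in 4.72% and 5.12% of pericytes, 2.96% and 5.09% of RPE cells, 2.84% and 4.4% of melanocytes and 1.63% and 3.58% of macrophages. With Scrublet doublets left out, the lower calls in smooth muscle (-2.52, adjusted p = 0.0941) and macrophages (-1.99, adjusted p = 0.0827) missed the threshold. The lower call in RPE missed it with free RNA subtracted (-1.11, adjusted p = 0.0675). Cells without fibroblast marker UMIs were fitted with fibroblasts without endothelial marker UMIs. RPE (-1.27, adjusted p = 0.0984) and smooth muscle (-1.69, adjusted p = 0.267) also missed it there. Macrophages without a fibroblast marker UMI had 1.64 and 2.27 raw CPM, against 10.8 and 9.38 in all macrophages. Such pericytes had 12.9 and 10.1, against 25.3 and 34.1 in all, and such melanocytes 13.8 and 13.7, against 36.8 and 20.9. Such RPE cells had 19.1 and 2.02, against 16.4 and 13.3, and such smooth muscle cells 12.2 and 5.61, against 11.2 and 6.79. Endothelial cells held 7.0% and 5.58% of all UMIs and 69.2% and 72% of the Igfbp3 UMIs. In fibroblasts 13.8% and 17% of cells were positive and the top 10% held 94.9% and 89.7% of the UMIs; fibroblasts with no endothelial marker UMI (3745 and 5706 cells) still had 78.8 and 61.1 raw CPM, against 81 and 69.1 in all fibroblasts.

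Igfbp4, which holds IGF until PAPP-A cuts it, was highest in fibroblasts and widespread. It measured 2125 and 2083 CPM in fibroblasts, 531 and 562 CPM in smooth muscle, 535 and 519.9 CPM in pericytes, 336 and 247 CPM in endothelial cells and 243 and 246 CPM in macrophages. Melanocytes had 115 and 172 CPM and RPE 33.8 and 75.9 CPM. Fibroblasts exceeded smooth muscle (log2 fold change 1.95 ± 0.32, adjusted p = 0.00175), the 4 steps from smooth muscle down to melanocytes missed the threshold, and melanocytes exceeded RPE (1.39 ± 0.32, adjusted p = 0.00487). A UMI was present in 94.5% (93.7 to 95.2) and 95.5% (95 to 96) of fibroblasts and 11.8% (8.43 to 16) and 19.8% (17.3 to 22.6) of RPE cells, and in 75% and 77.2% of pericytes, 77.4% and 87.3% of smooth muscle cells, 61.9% and 60.1% of endothelial cells, 17.8% and 25.9% of melanocytes and 52% and 57.1% of macrophages. Without fibroblast marker UMIs the RPE level was 3.05 and 7.36 raw CPM and the melanocyte level 16.5 and 24.1, against 29.2 and 70.1 in all RPE cells and 117 and 209 in all melanocytes. Such macrophages had 129 and 135 raw CPM, against 172 and 203 in all macrophages. Such pericytes had 292 and 298, against 528 and 607 in all, and such smooth muscle cells 324 and 413, against 544 and 665. Such endothelial cells had 293 and 256, against 345 and 282.

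Igfbp5, a binding protein that attaches to matrix, was carried by fibroblasts and pericytes. It measured 5213 and 6002 CPM in fibroblasts and 3213 and 3166 CPM in pericytes, a difference that missed the threshold (0.80 ± 0.31, adjusted p = 0.08) although the libraries did not overlap. Pericytes exceeded smooth muscle, at 846 and 890.3 CPM (1.89 ± 0.32, adjusted p = 0.00366). That step missed the threshold with free RNA subtracted (1.94, adjusted p = 0.377) and in cells without fibroblast marker UMIs (2.33, adjusted p = 0.116). Melanocytes had 304 and 554 CPM, below smooth muscle (smooth muscle over melanocytes 1.08 ± 0.32, adjusted p = 0.0224), a call that 4 other settings lost, with adjusted p of 0.0832, 0.0774, 0.111 and 0.52, and that moved to -0.60 (melanocytes over smooth muscle) without library 1. RPE had 236 and 313 CPM, macrophages 208 and 241 CPM and endothelial cells 101 and 268 CPM. A UMI was seen in 96.5% and 97.5% of fibroblasts, 93% and 92.6% of pericytes, 65% and 72.7% of smooth muscle cells, 20.3% and 32.5% of endothelial cells, 71.7% and 67.4% of RPE cells, 17.3% and 34.8% of melanocytes and 17.7% and 28.1% of macrophages. Macrophages without a fibroblast marker UMI had 22.1 and 49.1 raw CPM and such melanocytes 22.3 and 90.2, against 147 and 199 in all macrophages and 308 and 672 in all melanocytes. Such pericytes had 2418 and 2623, against 3172 and 3696 in all pericytes. Igfbp2, the neighbouring gene, was at 23.1 and 27.9 CPM in pericytes.

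Igfbp7 was highest in the 3 vessel classes. Its level was 8558 and 5081 CPM in pericytes, 5065 and 3149.8 CPM in smooth muscle, 4293 and 3016 CPM in endothelial cells and 3964 and 2557 CPM in fibroblasts. RPE had 531 and 467 CPM, melanocytes 337 and 355 CPM and macrophages 121 and 159 CPM. The steps among the first 4 classes missed the threshold (pericytes over smooth muscle, 0.73 ± 0.25, adjusted p = 0.0727), and fibroblasts exceeded RPE (2.68 ± 0.27, adjusted p = 7.81e-06; RPE over fibroblasts with free RNA subtracted -2.76, adjusted p = 0.113). A UMI was found in 100.0% (99.6 to 100.0) and 99.8% (99.4 to 99.96) of pericytes and 14% (10.8 to 17.6) and 19.1% (16.5 to 21.9) of macrophages, and in 98.7% and 99.1% of fibroblasts, 98.7% and 99.4% of smooth muscle cells, 95.7% and 95.7% of endothelial cells, 93.1% and 89.5% of RPE cells and 21.9% and 30.8% of melanocytes. Without fibroblast marker UMIs macrophages had 15.6 and 23.8 raw CPM, against 85.7 and 131 in all macrophages. Such melanocytes had 72.0 and 121, against 341 and 431 in all melanocytes. Such RPE cells had 410.3 and 340.2, against 460.0 and 431 in all RPE cells. Igfbp7 overlaps Polr2b on the other strand, a gene with 1567 and 4317 UMIs.

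**Figure D3:**
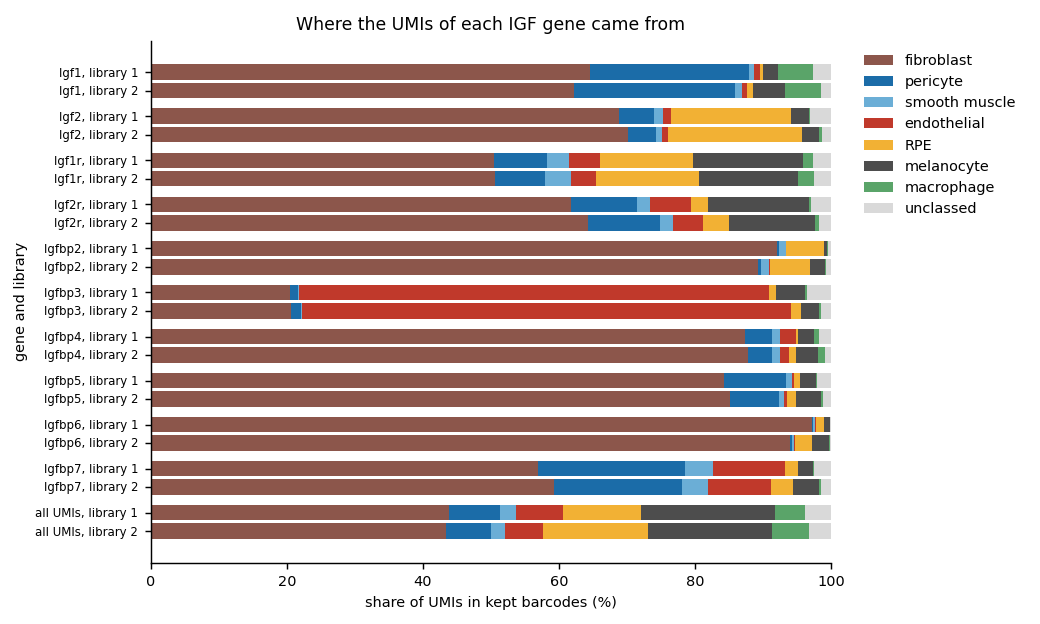
Share of the UMIs of each IGF gene in kept cells that came from each cell class, per library, with the share of all UMIs in the lowest bars. Fibroblasts supplied 97.2% and 94% of Igfbp6 UMIs and endothelial cells 69.2% and 72% of Igfbp3 UMIs, while fibroblasts held 43.9% and 43.3% and endothelial cells 7.0% and 5.58% of all UMIs.

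Inside the fibroblasts, 7 subgroups were set by pairs or triplets of marker genes and are called by them. Each was set against the mean of the other 6 over 11968 genes, and 11 calls on IGF genes resulted. Igfbp2 and Igfbp6 gave 9 of the 11. Igfbp2 was at 3245 and 2866 CPM in Angptl7-Cilp2 cells (212 and 196 cells) and 3477 and 1964 CPM in Ltbp2-Comp cells (458 and 1251 cells), against 203 and 49.9 CPM in Crabp2-Ephb1 cells (305 and 289 cells) and 87.1 and 67.1 CPM in Tfpi2-Tcf21 cells (509 and 654 cells). The remaining subgroups lay between, with 1380.4 and 638 CPM in Kera-Thbs4, 1216 and 533 CPM in Pi16-Dpt-Clec3b and 740.0 and 649 CPM in Cxcl5-Csf3-Il11 cells. The log2 fold change was 2.70 ± 0.28, adjusted p = 0.000472 in Angptl7-Cilp2 and -3.52 ± 0.45, adjusted p = 0.00083 in Tfpi2-Tcf21 cells. The Angptl7-Cilp2 subgroup had 2 of 10 IGF genes higher and 0 lower, against 5.87% and 6.15% of all genes; Tfpi2-Tcf21 had 0 and 2, against 9.58% and 7.91%; Ltbp2-Comp had 2 and 0, against 2.46% and 3.85%; and Crabp2-Ephb1 had 0 and 2, against 2.92% and 1.86%. Kera-Thbs4 had 1 and 1, against 3.18% and 2.61%, Cxcl5-Csf3-Il11 had 0 and 1, against 3.88% and 0.869%, and Pi16-Dpt-Clec3b had 0 by edgeR, against 3.26% and 1.01%, with 5 of 10 at an unadjusted p below 0.05. DESeq2 made 12 such calls over the subgroups.

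Igfbp6 was called in 5 subgroups, of which 2 sat at the fold limit. Ltbp2-Comp (1.02 ± 0.09, adjusted p = 4.93e-06) and Cxcl5-Csf3-Il11 (-1.03 ± 0.10, adjusted p = 2.42e-05) each lost the call in 4 settings, among them the fit without the library as a block (1.04, adjusted p = 0.122 in Ltbp2-Comp; -0.98, adjusted p = 0.26 in Cxcl5-Csf3-Il11). Without library 1 Ltbp2-Comp was at 0.99, and without library 2 Cxcl5-Csf3-Il11 was at -0.87. Igfbp6 was at 5008 and 3162 CPM in Angptl7-Cilp2, 3361 and 2056 CPM in Kera-Thbs4, 2901 and 1526 CPM in Ltbp2-Comp and 2398 and 1561 CPM in Pi16-Dpt-Clec3b cells. Lower levels were 1079.9 and 484 CPM in Crabp2-Ephb1, 909 and 422 CPM in Cxcl5-Csf3-Il11 and 171 and 105 CPM in Tfpi2-Tcf21 cells. Over all pairs of subgroups 11.5% of genes were called. The step from Pi16-Dpt-Clec3b to Crabp2-Ephb1 was called (1.41 ± 0.13, adjusted p = 1.02e-05), as was that from Cxcl5-Csf3-Il11 to Tfpi2-Tcf21 (2.22 ± 0.13, adjusted p = 7.44e-07). Tfpi2-Tcf21 cells were the shallowest, with medians of 5359 and 5595 UMIs, and Angptl7-Cilp2 cells had medians of 13079 and 12878, and CPM is relative to that depth. Among the other genes, Igf1 was lowest in Crabp2-Ephb1 cells at 43.5 and 35.2 CPM (-1.33 ± 0.10, adjusted p = 1.31e-07) and highest in Kera-Thbs4 cells at 164 and 142 CPM. Igf2 was lowest in Kera-Thbs4 cells at 12.4 and 35.4 CPM (-1.49 ± 0.14, adjusted p = 1.6e-06; without the library as a block -1.46, adjusted p = 0.176). Igfbp3, Igfbp4, Igfbp5, Igfbp7 and the receptors were not called in any subgroup; Igfbp5 ranged from 3676 to 7276 CPM.

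**Figure D4:**
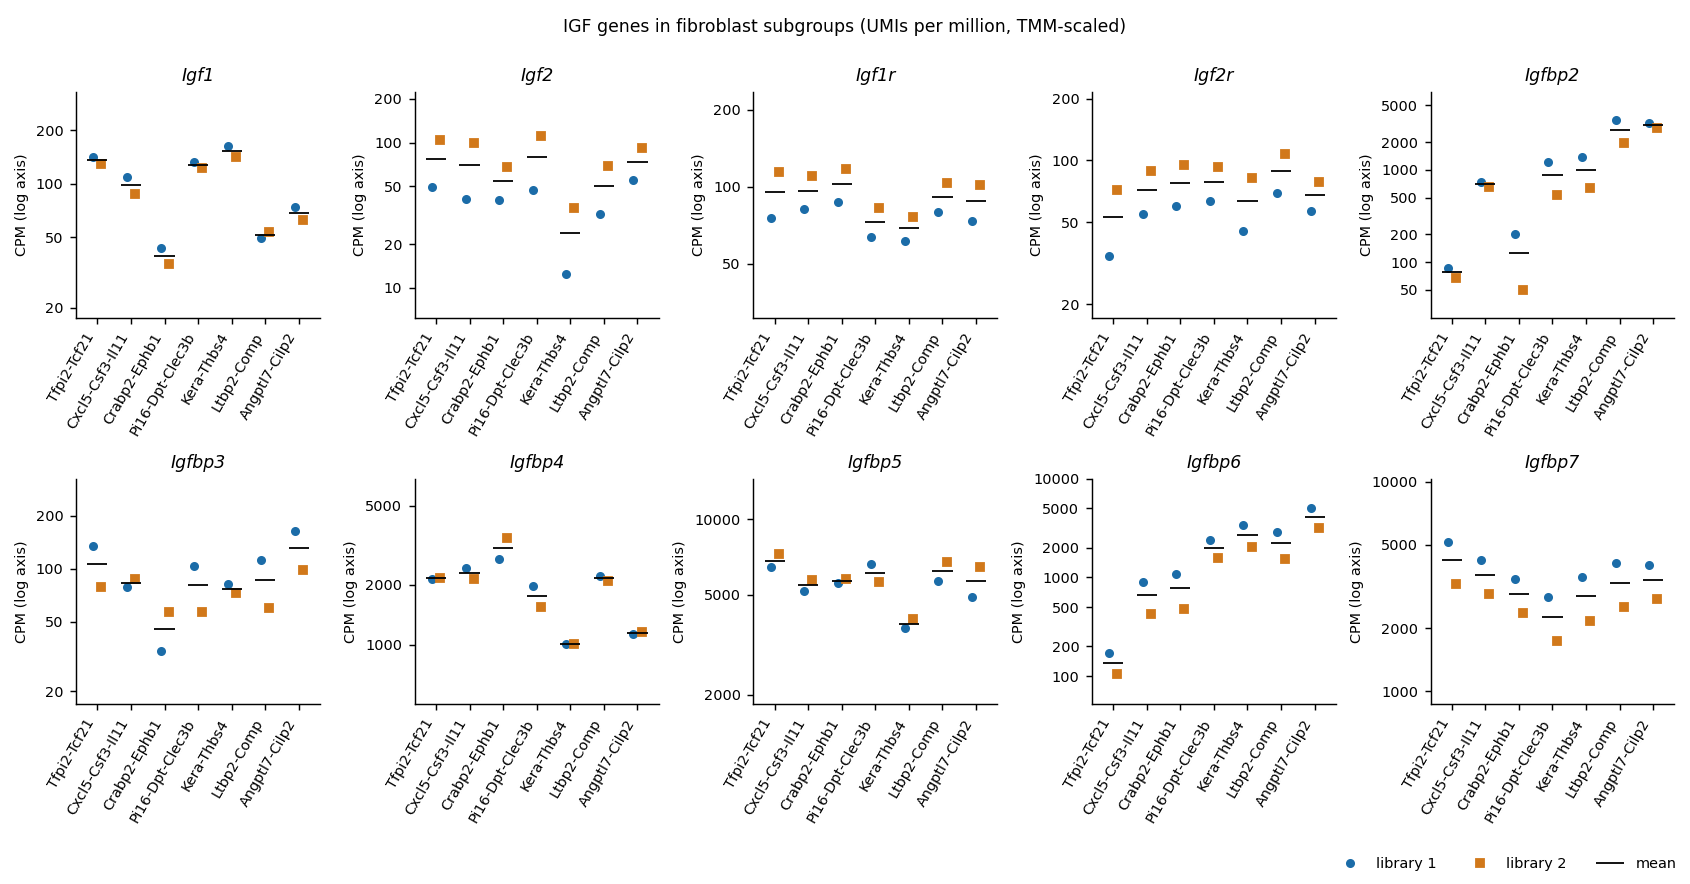
CPM on a log axis for each IGF gene (panels) in the 7 fibroblast subgroups named by their markers; circles are library 1, squares library 2, and the line is their mean. Igfbp2 and Igfbp6 have their lowest means in Tfpi2-Tcf21 cells (87.1 and 67.1 CPM for Igfbp2, 171 and 105 CPM for Igfbp6) and their highest in Angptl7-Cilp2 cells.

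Endothelial cells were split by the markers Gja4, Sox17 and Bmx (arterial, 51 and 56 cells), Kdr, Car4 and Rgcc (capillary, 289 and 417) and Ackr1, Selp and Nr2f2 (venous, 90 and 94), which left 8 of the 10 IGF genes tested (Igf1 and Igfbp2 were too low). The arterial bed had 2 of 8 higher and 0 lower, against 3.39% and 2.03% of all 7882 genes, the capillary bed 0 and 1, against 4.05% and 3.39%, and the venous bed 0 and 1, against 3.1% and 3.08%. Igf2 was highest in arterial cells, at 33.7 and 59.8 CPM in arterial cells, 1.42 and 5.65 CPM in capillary and 0 and 3.47 CPM in venous cells. These rest on 16 and 28 UMIs in arterial, 6 and 39 in capillary and 0 and 3 in venous cells. The 0 allows up to 3.21 CPM. Igf2 was positive in 7 and 9 arterial cells. The 10% of arterial cells with the most held 87.5% and 78.6% of the arterial Igf2 UMIs. The venous level was called lower (-2.92 ± 0.74, adjusted p = 0.0188), but not without the library as a block (-2.95, adjusted p = 0.134). Over all pairs of beds 7.67% of genes were called. Arterial cells exceeded capillary cells (log2 fold change 3.75 ± 0.47, adjusted p = 0.000143), and a UMI was seen in 13.7% (5.7 to 26.3) and 16.1% (7.62 to 28.3) of arterial cells. Igfbp4 was lower in capillary cells, at 207 and 189.8 CPM, against 774 and 745 CPM in arterial and 829 and 618 CPM in venous cells (capillary against the others, -1.90 ± 0.13, adjusted p = 1.31e-06; arterial against the others, 1.01 ± 0.12, adjusted p = 0.000175, with 0.91 under no filter on low counts and 0.83 without library 2). Igfbp3 was at 2030.3 and 1916 CPM in capillary cells, 1012 and 1727 CPM in arterial and 987 and 631 CPM in venous cells, an order whose steps missed the threshold (adjusted p = 0.439 and 0.293). Igf2r was at 51.4 and 81 CPM in venous and 28.4 and 45.8 CPM in capillary cells, a difference that passed the adjusted p but not the fold (0.83 ± 0.19, adjusted p = 0.00877).

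**Figure D5:**
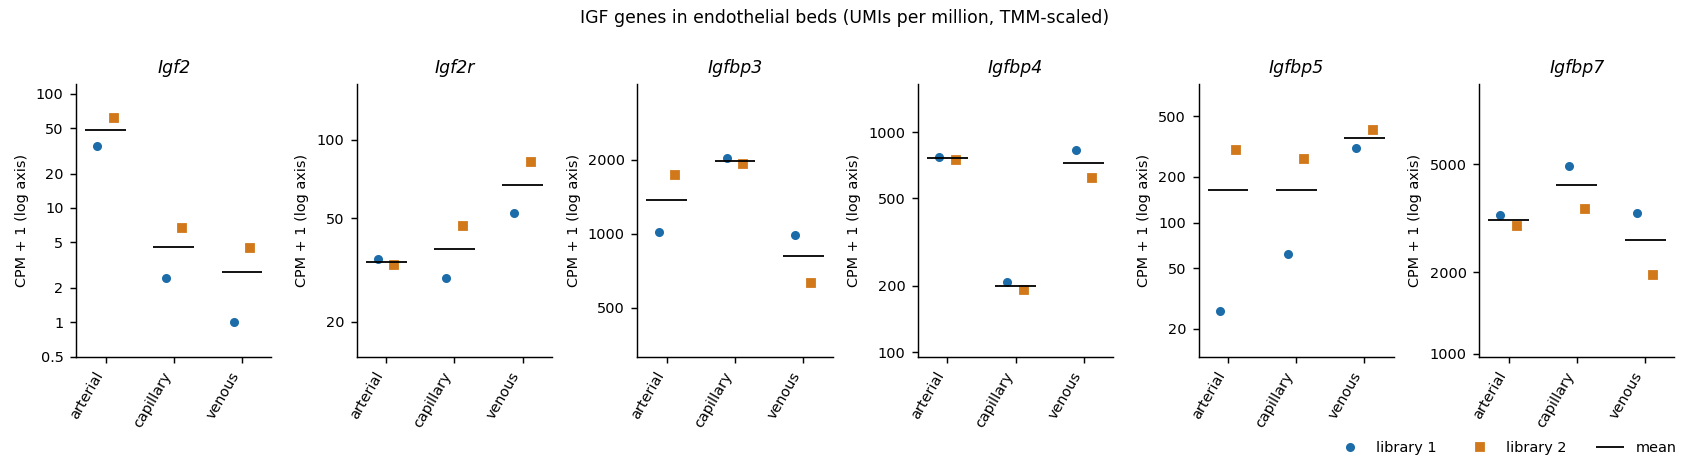
CPM + 1 on a log axis for 6 IGF genes in arterial, capillary and venous endothelial cells; circles are library 1, squares library 2, and the line is their mean. Igf2 is highest in arterial cells (33.7 and 59.8 CPM) and Igfbp4 lowest in capillary cells (207 and 189.8 CPM).

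A list of 30 other genes of the pathway, of which 26 were high enough to test, was read class by class in the same fit. Of the 26, fibroblasts had 46.2% higher (12 genes) and 3.85% lower (1), against 17.1% and 6.31% of all genes. Pericytes had 26.9% higher (7) and 3.85% lower (1), against 12.9% and 9.26%, and smooth muscle the same counts, against 12.4% and 7.29%. Endothelial cells had 19.2% higher (5) and 26.9% lower (7), against 15% and 19.5%, and melanocytes 15.4% higher (4) and 11.5% lower (3), against 14.7% and 11.3%. Macrophages had 15.4% higher (4) and 38.5% lower (10), against 19.8% and 21.1%, and RPE 11.5% higher (3) and 38.5% lower (10), against 26.3% and 23.5%. The median log2 fold change of the list was 0.86 in fibroblasts (0.02 over all genes), 0.50 in pericytes (-0.06), -0.56 in RPE (-0.05) and -0.76 in macrophages (-0.14). Insrr, Igfals, Igfbp1 and Igfbpl1 were too low to test.

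In endothelial cells the genes with the largest increase were Stc1, an inhibitor of the PAPP-A proteases (708 and 829 CPM; log2 fold change 5.58 ± 0.26), the insulin receptor Insr (184 and 271 CPM; 3.88 ± 0.09) and Foxo1, a transcription factor held out of the nucleus by Akt (291 and 268 CPM; 3.36 ± 0.10). Igf1r, the related receptor, was at -0.64 and not called there. In fibroblasts they were H19, the noncoding RNA next to Igf2 (33.1 and 23 CPM), the IGFBP protease Pappa2 (64.3 and 108 CPM) and the secreted serine protease Htra1 (187 and 224 CPM). In RPE they were Igf2bp1, which binds Igf2 mRNA (32.5 and 29.1 CPM; 6.55 ± 0.49), Stc2, also an inhibitor of the PAPP-A proteases, on 12 and 37 UMIs (1.42 and 1.84 CPM) and the insulin-degrading enzyme Ide (77.5 and 82.4 CPM).

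Pericytes and smooth muscle shared Grb14, an adaptor that dampens insulin receptor signalling. Grb14 was at 27.3 and 26.8 CPM in pericytes and 17.3 and 13.8 CPM in smooth muscle. Both classes had Pappa among their 3, at 1.75 and 3.03 CPM in pericytes and 8.92 and 4.31 CPM in smooth muscle. Pappa rested on 11 and 33 UMIs in pericytes and 18 and 15 in smooth muscle. The third was Stc1 in pericytes (194 and 267 CPM) and Stc2 in smooth muscle, on 5 and 9 UMIs. Pericyte markers stood at 55.3% and 56.5% of their pericyte level in smooth muscle, and their part in the shared genes was not tested. In macrophages they were Igf2bp1, on 11 and 22 UMIs, M6pr, the cation-dependent mannose 6-phosphate receptor (235 and 270.1 CPM), and Igf2bp2 (33.8 and 39.2 CPM). M6pr and Igf2r, which both sort lysosomal enzymes, were called in opposite directions in macrophages (-2.69 ± 0.19, adjusted p = 8.56e-09 for Igf2r; 2.37 ± 0.09 for M6pr). In melanocytes they were Pappa (2.51 and 3.41 CPM), Socs2, which ends growth hormone signalling (125 and 140.2 CPM), and Igf2bp3 (3.56 and 5.58 CPM).

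The tested genes whose log2(CPM + 1) followed each IGF gene most closely over the 14 class sums are given as a description; the points come from only 2 libraries and share their depth. The closest 3 were Il1rl2 (r = 0.959), Tmem37 (r = 0.956) and Il1r2 (r = 0.953) for Igf1, and Sulf1 (r = 0.971), Ptch1 (r = 0.965) and Fbxo33 (r = 0.953) for Igf2. They were Purg (r = 0.926), Thrb (r = 0.924) and mt-Nd4l (r = 0.918) for Igf1r, and Golim4 (r = 0.986), Calu (r = 0.964) and Reck (r = 0.953) for Igf2r. Igfbp2 had Ntng1 (r = 0.981), Fzd2 (r = 0.976) and Loxl1 (r = 0.965), and Igfbp3 had Dhh (r = 0.983), Ttc9 (r = 0.970) and Rtl1 (r = 0.970). Dhh and Rtl1 were near the floor, with mean levels of 4.17 and 1.18 CPM in endothelial cells, their highest class. Igfbp4 had Creb3l1 (r = 0.968), Hs3st3b1 (r = 0.957) and Mxra8 (r = 0.954), and Igfbp5 had C1ra (r = 0.982), Irx1 (r = 0.979) and Cygb (r = 0.977). Igfbp6 had Cpz (r = 0.970), Ecrg4 (r = 0.961) and Clec11a (r = 0.959), and Igfbp7 had Hey1 (r = 0.973), Rhoj (r = 0.970) and Apcdd1 (r = 0.968). Between the IGF genes, Igfbp2 and Igfbp6 were closest (r = 0.929).

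Library 2 was higher than library 1 for Igf2, Igf1r and Igf2r in 7 of 7 classes, with median log2 differences of 0.91 (0.70 to 1.35), 0.50 (0.27 to 0.87) and 0.83 (0.50 to 1.26). Of all genes tested, 14.1% were higher in all 7 classes and the median difference was 0.02. Igfbp7 differed by -0.51 (-0.75 to 0.39), and Igf1 by 0.09. Free RNA, read in barcodes of at most 100 UMIs, showed the same direction for Igf2, at 35.0 CPM in library 2 and 13.8 CPM in library 1. The pools hold different mice and were not otherwise labelled as different, so animal, dissection and library cannot be told apart.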

How the data were processed

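Choroid and RPE tissue was digested with collagenase and then trypsin, and single-cell libraries were made on the 10x Genomics platform, per the labels. The authors deposited raw UMI counts for every barcode; Cell Ranger 2.1.1 and mm10 are named in the submitters' processing notes, while the matrix headers, per the file headers, carry the software number 4. The totals were 91741168 and 149570817 UMIs.

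The members and all gene lists were chosen with earlier results of these data known. Barcodes were filtered and classed as in the report; ties stayed unclassed, and doublets (214 and 706 by Scrublet) were kept. Counts were summed per class and library (14 sums) and fitted with edgeR 4.0.16 in R 4.3.3 (TMM, filterByExpr, robust quasi-likelihood, library as a block), with p adjusted over all genes tested; SE is the log2 fold change over the root of F. Subgroups and endothelial beds were fitted likewise. The block follows from classes of 1 library sharing its animals. All 10 members are named; from the pathway list the 3 with the largest increase per class; and the 3 genes with the highest correlation to each member. Gene spans come from GENCODE M21 (GRCm38). Alternatives (DESeq2 1.42.0, other filters, classes and free RNA) were tried, and the code was tested on simulated data.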

Additional observations from a re-analysis of the deposited data

Results flagged for a closer look

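Of the kept cells, 623 and 786 had no class and enter no comparison. Each IGF gene had more UMIs there than the 3 that a count of 0 allows. These cells held 3.73% and 3.16% of all UMIs in libraries 1 and 2, and a smaller share of the UMIs of each IGF gene. That share ran from 0.0754% (Igfbp6) to 3.55% (Igfbp3) in library 1 and from 0.0981% (Igfbp6) to 2.51% (Igf1r) in library 2. Over both libraries the counts were 259 for Igf1, 162 for Igf2, 479 for Igf1r, 259 for Igf2r, 720 for Igfbp2, 823 for Igfbp3, 2892 for Igfbp4, 9859 for Igfbp5, 119 for Igfbp6 and 10319 for Igfbp7.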

How the results depend on the processing

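Leaving aside the adjusted p alone, which cannot lose a call, 639 of 686 changes of setting kept one of the 61 calls of an IGF gene in a class, subgroup or bed, 46 lost it and 1 turned the sign. For the 19 calls between neighbouring classes these were 187, 21 and 1 of 209. The turned ones were Igfbp2 in smooth muscle, at -0.60 against the mean of the others, and Igf1 in melanocytes over smooth muscle, at 0.38, both in cells without fibroblast marker UMIs (fibroblasts without endothelial marker UMIs). With free RNA subtracted 3 IGF genes were called in endothelial cells, against 7 without. Melanocytes had 7 called with Scrublet doublets left out and 7 with the adjusted p alone (4 in the report), smooth muscle 5 with the top class at least 3 times the next and 6 with the adjusted p alone (3 in the report), fibroblast subgroups 39 and endothelial beds 8 with the adjusted p alone (11 and 4 in the report). Endothelial beds had 7 in cells without fibroblast marker UMIs. The adjusted p alone sets no minimum fold; for the other settings the cause was not tested. Igf1r in macrophages was -0.997 with RLE size factors, short of the fold of 1. Without the library as a replicate block 5 of 61 class, subgroup or bed calls were lost, such as Igf2 in venous cells (-2.95, adjusted p = 0.134). Leaving out a library allows no test; 70 of 122 values then stayed within 1 SE, 52 moved and 0 changed sign. Without library 1, 2 steps moved by over 1.5 times: Igf1 in RPE over endothelial cells to -0.77 and Igfbp5 in melanocytes over smooth muscle to -0.60. Shares of cells moved with depth in 135 of 140 cases. The 2 libraries limit the precision.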
